A study of Mus musculus with 20 samples.

Results

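*Reg3b* and *Reg3g*, which encode a pair of secreted C-type lectins of the regenerating islet-derived 3 group, were examined as 2 of the 15876 genes with a row in the count table. They were chosen by gene symbol, and both were measured in every library. RNA sequencing had been run on colonic intestinal epithelial cells (IECs), bead-isolated as EpCAM+ CD45-, of adult male C57BL/6 mice raised with a conventional microbiota. The 10 Str mice met an aggressive male of their own strain in the home cage for 2 h on each of 6 days, a social disruption stressor, and the 10 Con mice stayed in their home cages. Cage membership is not given for the libraries. Each library came from 1 mouse and held 20390091 to 24508215 counts in Str and 20034127 to 26141352 counts in Con. Libraries are called here by their column names, in which S or C stands for Str or Con, followed by V or L, a letter whose meaning is not given in the sources used here, and a number.

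REG3 lectins are made by epithelial cells of the gut and released into the lumen. Human REG3A and mouse REG3G bind the peptidoglycan of Gram-positive bacteria and help to keep bacteria away from the epithelial surface, while REG3B has been linked mainly to defence against Gram-negative bacteria in mice. In mouse gut their transcription depends on bacteria sensed through MyD88 and on IL-22, a cytokine of innate lymphoid cells and T cells that acts on epithelial cells through STAT3. In healthy mice both are abundant in the small intestine and low in the colon, where they rise on infection or injury.

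Both genes lie in the Reg cluster of mouse chromosome 6 (GRCm38, GENCODE M21). *Reg3b* spans 78370657 to 78373466 on the forward strand and *Reg3g* spans 78466269 to 78468872 on the reverse strand, with *Reg3d*, *Reg3a*, *Reg2* and *Reg1* between them. The end of *Reg3b* and the start of the *Reg3g* span are 92.8 kb apart, and each gene has up to 6 exons in 1 transcript. Their promoters are shown because the genes moved together. The sequences are from RefSeq (GRCm38.p6) and are written on the gene's own strand. They run from 250 bases before to 50 bases after the RefSeq transcript start. For *Reg3b* this start lies downstream of the GENCODE start, so most of its window falls inside the span given above. Capitals mark identical stretches of at least 8 bases in the alignment of the pair.
Reg3b promoter, chr6:78370635-78370934, forward strand: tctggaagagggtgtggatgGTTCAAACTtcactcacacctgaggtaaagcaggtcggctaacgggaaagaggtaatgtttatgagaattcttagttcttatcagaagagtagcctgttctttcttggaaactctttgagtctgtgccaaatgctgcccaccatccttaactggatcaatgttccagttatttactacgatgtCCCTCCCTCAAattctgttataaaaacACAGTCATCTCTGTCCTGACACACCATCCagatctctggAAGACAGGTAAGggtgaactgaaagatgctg
Reg3g promoter, chr6:78468825-78469124, reverse strand: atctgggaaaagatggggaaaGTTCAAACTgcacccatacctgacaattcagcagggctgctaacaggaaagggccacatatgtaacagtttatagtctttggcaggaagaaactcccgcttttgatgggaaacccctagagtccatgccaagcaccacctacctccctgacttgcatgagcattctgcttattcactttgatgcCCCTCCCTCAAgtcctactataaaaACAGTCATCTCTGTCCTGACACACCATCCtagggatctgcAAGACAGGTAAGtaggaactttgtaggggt
The pair shared 210 of 294 aligned bases (71.4%), and the *Reg3a* promoter shared 68.2% of its aligned bases with *Reg3b* and 73.7% with *Reg3g*. The longest identical stretch, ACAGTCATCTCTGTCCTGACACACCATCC, was 29 bases long and began 20 bases before the start in both genes. Letters of the TATA box, TATAAA on the gene's own strand, were found 29 bases before the *Reg3b* start and 27 bases before the *Reg3g* start, and 8.32% of 32851 promoters of this length hold them. The STAT letters TTCNNNGAA, searched on both strands, matched once in *Reg3b* (TTCTTGGAA at -129) and not in *Reg3g*, against 8.30% of promoters. The NF-kB letters, GGG and CC with any 5 bases between them, matched once in *Reg3g* (GGGAAACCCC at -123) and not in *Reg3b*, and they were found in 50.8% of promoters. C/EBP letters TTGCNNAA (10.8% of promoters) and the glucocorticoid receptor letters, AGAACA and TGTTCT with any 3 bases between them (0.00913%), had no match in these windows of either gene. A match of letters is a description, not a binding site.

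Colonic IECs of Str mice held far more transcript of both lectin genes. *Reg3b* had 22.2 CPM, that is counts scaled to library size with TMM factors, in the lowest Str library, a median of 328 CPM and 2296 CPM in the highest Str library. In Con libraries *Reg3b* had 1.23 CPM at the lowest, a median of 14.2 CPM and 58.3 CPM at the highest. Thus 9 of 10 Str libraries lay above every Con library, and the Str library SL4 lay inside the Con range. *Reg3b* averaged 557 ± 654 CPM in Str and 17.2 ± 16.9 CPM in Con (SD, n = 10 each), which gave a log2 fold change of 5.01 with an SE of 0.68 (edgeR quasi-likelihood test, Benjamini-Hochberg adjusted p = 4.29e-05). This was the first of 15876 genes when ordered by log2 fold change.

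*Reg3g* had 3.97 CPM in the lowest Str library, a median of 54.8 CPM and 186 CPM in the highest Str library. The Con libraries held 0.539 CPM at the lowest, a median of 3.45 CPM and 9.24 CPM at the highest. Again 9 of 10 Str libraries were above every Con library, with SL4 as the exception. *Reg3g* averaged 70.0 ± 60.5 CPM in Str and 3.87 ± 2.48 CPM in Con (SD, n = 10 each), which gave a log2 fold change of 4.16 with an SE of 0.55 (edgeR, adjusted p = 3.05e-05). It was the 5th gene by log2 fold change. Both members were therefore called higher, where 8.94% of all genes were called higher and 7.72% lower (adjusted p under 0.05). A log2 fold change over 2 with such a call was seen in 28 genes, 0.176% of those tested, both members among them. The median log2 fold change over all genes was close to 0 (-0.0042).

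**Figure D1:**
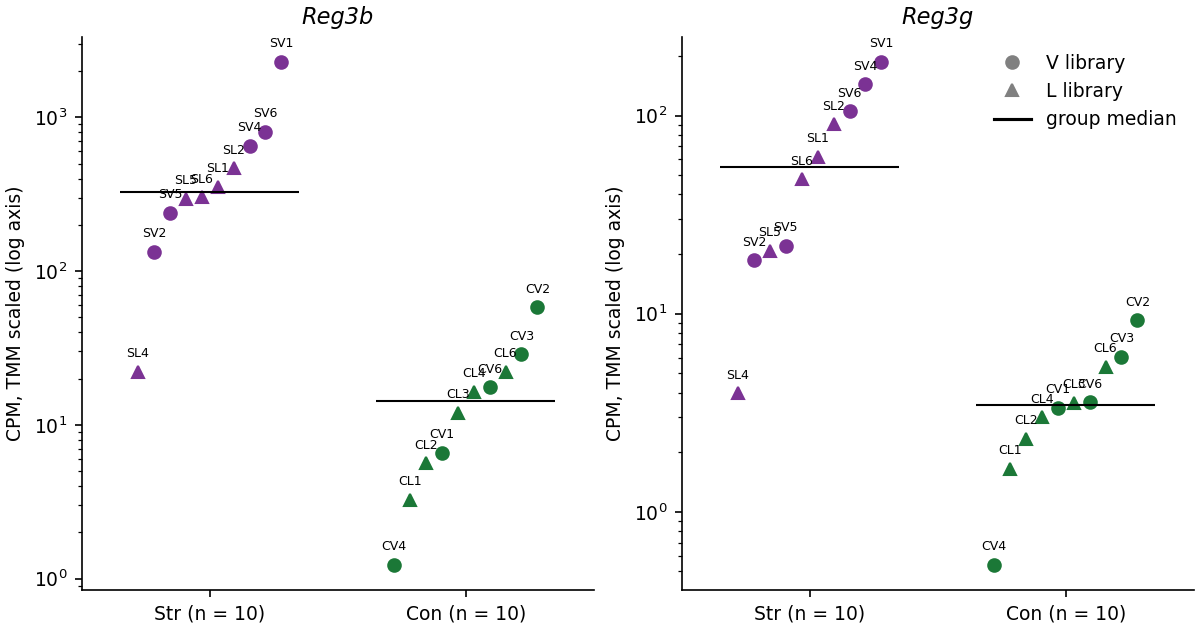
*Reg3b* (left panel) and *Reg3g* (right panel) in each library, in TMM-scaled CPM on a log axis, Str libraries left of Con libraries in each panel. Each point is 1 mouse, circles are V and triangles are L libraries, and the line is the group median. All Str libraries but SL4 sit above CV2, the highest Con library at 58.3 CPM of *Reg3b* and 9.24 CPM of *Reg3g*.

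The same mice stood at the ends of both groups for both genes. In Str, SV1 was the highest library for *Reg3b* (53797 counts, 162 times the Con median CPM) and for *Reg3g* (4370 counts, 54.1 times the Con median CPM). SL4 was the lowest Str library for both, with 453 counts of *Reg3b* (1.56 times the Con median CPM) and 81 counts of *Reg3g* (1.15 times the Con median CPM). Among Con mice, CV2 was highest for both, with 1420 counts of *Reg3b* and 225 of *Reg3g*. CV4 was lowest for both, with 25 counts of *Reg3b* (exact Poisson 95% interval 16.2 to 36.9) and 11 of *Reg3g* (5.49 to 19.7). Such intervals cover counting error only, since PCR copies are not independent molecules. *Reg3b* alone took 0.220% of all counts in SV1, against at most 0.00582% in any Con library. In a bulk sample, more cells that make a transcript and more transcript per cell cannot be told apart.

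SL4 stood low among Str libraries for other defence genes too. It was the lowest Str library for 7 of the 8 genes set beside the lectins below, all but *Nos2*. Its *Stat3* level was 151 CPM, against 213 CPM in the next lowest Str library and 155 CPM in the highest Con library. SL4 also had the lowest total of the Str libraries (20390091 counts), CV4 the lowest total of the Con libraries (20034127 counts) and SV1 the highest total in Str (24508215 counts). The part of library size in these extremes was not tested, and no adjusted correlation of either gene with the total passed. For *Reg3b* with the total, r was 0.64 in Str (rho = 0.30, adjusted permutation p = 0.0886 for r and 0.574 for rho, n = 10) and -0.32 without SL4 and SV1.

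The change of both genes was seen in the V and in the L libraries. Among V libraries *Reg3b* ranged from 134 to 2296 CPM in 5 Str mice and between 1.23 and 58.3 CPM in 5 Con mice. Among L libraries it lay between 22.2 and 466 CPM in 5 Str mice and between 3.25 and 22.1 CPM in 5 Con mice. The log2 fold change of *Reg3b* was 5.19 in V libraries alone and 4.59 in L libraries alone (adjusted p = 0.0393, edgeR). For *Reg3g* it was 4.36 in V libraries alone and 3.81 in L libraries alone, where it missed the threshold (adjusted p = 0.0572, edgeR). The difference of the fold change between L and V libraries was -0.60 for *Reg3b* (SE 1.12) and -0.56 for *Reg3g* (SE 1.03), neither of which passed (adjusted p = 0.954 for both, edgeR interaction). Within Str, the log2 difference of L over V libraries was -1.52 for *Reg3b* (SE 0.76, adjusted p = 0.320) and -1.08 for *Reg3g* (SE 0.62, adjusted p = 0.384), and neither passed in edgeR.

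*Reg3b* was the more abundant of the pair, and its lead over *Reg3g* was wider in Str mice. Per kilobase of the principal transcript (783 bases for *Reg3b* and 771 bases for *Reg3g*), the median level in Str was 419 CPM per kb for *Reg3b* and 71.0 CPM per kb for *Reg3g*. In Con the medians were 18.1 CPM per kb for *Reg3b* and 4.47 CPM per kb for *Reg3g*. All annotated exons together span 1142 bases in *Reg3b* and 2114 bases in *Reg3g*, so levels per kb depend on the length taken. The ratio of *Reg3b* to *Reg3g* CPM within a library lay between 4.57 and 14.2 in Str (median 6.77) and between 1.97 and 6.31 in Con (median 3.73). It was above the highest Con library in 6 of 10 Str libraries. The log2 ratio averaged 2.89 ± 0.56 in Str and 1.75 ± 0.65 in Con (SD, n = 10 each), a difference of 1.13 (SE 0.27, two-sided permutation test, p = 0.00049). Leaving out any 1 library kept the difference between 1.03 and 1.23.

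The ratio also moved with level among Con mice. On log2 axes *Reg3b* changed by 1.44 for each unit of *Reg3g* across the 10 Con libraries, and by 0.99 across the 10 Str libraries. The difference between these slopes was not tested. In SL4, whose levels were in the Con range, the ratio was 5.59, and in CV4, the lowest library of all, it was 2.27 on 25 and 11 counts. For sequence comparison, transcripts of 783 bases for *Reg3b* and 2089 bases for *Reg3g* were taken. They share 67.4% of aligned bases, and their longest identical stretch, 35 bases, is shorter than the reads of 150 bases.

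**Figure D2:**
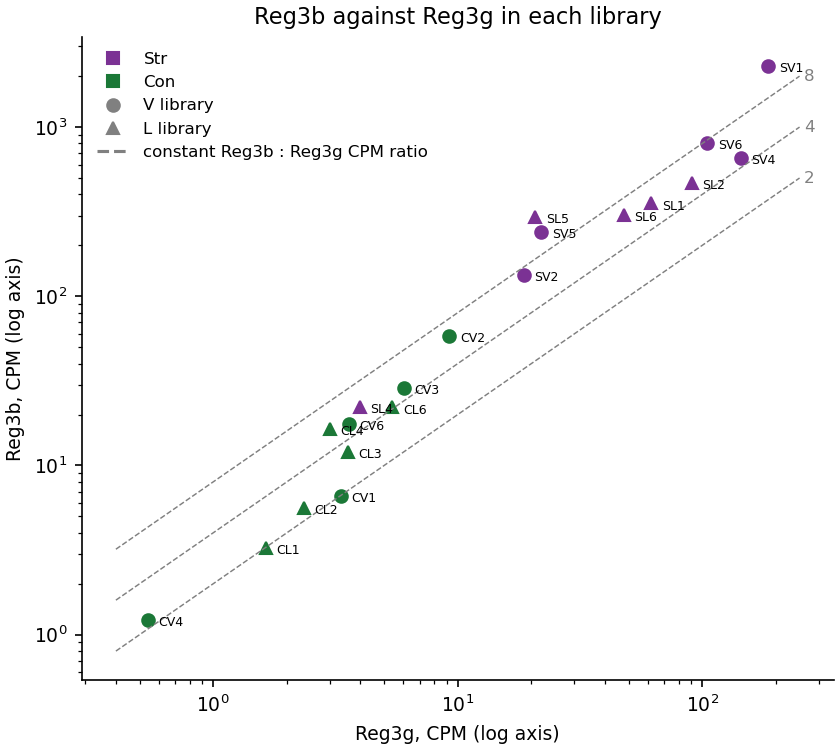
*Reg3b* against *Reg3g* in each of 20 libraries, in CPM on log axes, with dashed lines at *Reg3b* to *Reg3g* ratios of 2, 4 and 8. Str points (purple) lie at ratios of 4.57 to 14.2 and Con points (green) at 1.97 to 6.31, and SL4 lies among the Con points.

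Mice with much *Reg3b* had much *Reg3g* in either group. Over log2 CPM, Pearson's r of the pair was 0.95 in Str (rho = 0.98, n = 10) and 0.96 in Con (rho = 0.96, n = 10). The permutation p was at or near the smallest that 100000 resamples can give (1e-05 in Str and 3e-05 in Con for r), and passed after adjustment over 38 relations (adjusted p = 0.00038 and 0.00057, permutation tests). Without the 2 libraries farthest from the median, r was 0.90 in Str (without SL4 and SV1) and 0.90 in Con (without CV4 and CV2). The V and L sets hold 5 libraries a group, too few for a correlation within each.

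Among the other defence genes, *Fut2*, *Pla2g2a* and *Slpi* followed *Reg3g* from mouse to mouse in Str. *Fut2* encodes a fucosyltransferase of the mucosal surface and *Slpi* a secreted protease inhibitor. *Pla2g2a* is a secreted phospholipase gene, of which only transcript was measured here, so a working enzyme is not implied. In Str, r with *Reg3g* was 0.92 for *Pla2g2a* (rho = 0.88), 0.90 for *Fut2* (rho = 0.88) and 0.84 for *Slpi* (rho = 0.81), with adjusted permutation p of 0.00275, 0.00253 and 0.0154 for r. Without SL4 and SL5 these values were 0.82, 0.87 and 0.63. *Reg3b* had r of 0.80 with *Pla2g2a*, 0.73 with *Fut2* and 0.80 with *Slpi* in Str (adjusted permutation p = 0.0319, 0.0324 and 0.0319, n = 10). Without SL4 alone they were 0.55, 0.63 and 0.48 and missed an unadjusted 0.05 (exact permutation p = 0.120, 0.0634 and 0.187, n = 9). Relations of *Reg3g* in Str with *Stat3* (r = 0.84, rho = 0.61) and *Saa1* (r = 0.77, rho = 0.64) passed for r (adjusted permutation p = 0.0239 and 0.0324) and not for rho, and without SL4 alone r was 0.63 for *Stat3* and 0.56 for *Saa1* (exact permutation p = 0.0694 and 0.121, n = 9). *Reg3b* with *Stat3* (r = 0.75, rho = 0.59) and with *Saa1* (r = 0.71, rho = 0.67) did not pass (adjusted permutation p = 0.0708 for both r, n = 10). The relations with *Duox2*, *Nos2* and *Il18* did not pass for either member. In Con, none of the 16 relations to these genes passed by r. By rho 1 did, *Reg3g* with *Saa1* (rho = -0.81, adjusted permutation p = 0.0356, r = -0.64). Whether r differs between Str and Con was not tested.

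The spread between mice was wide in both groups. *Reg3b* ran over a 103-fold range in Str and a 47.6-fold range in Con, and *Reg3g* over 47.0-fold in Str and 17.1-fold in Con. The SD of log2 CPM was 1.76 in Str and 1.61 in Con for *Reg3b*, where counting alone would give 0.0265 in Str and 0.129 in Con. For *Reg3g* it was 1.69 in Str and 1.08 in Con, against 0.0674 and 0.207 from counting. None of 1330 genes within a factor of 2 of the mean CPM of *Reg3b* over 20 libraries had a larger SD in Str or in Con. Their median SD was 0.118 in Str and 0.110 in Con. Of 4325 genes matched in the same way to *Reg3g*, 1 had a larger SD in Str and 2 in Con. The means used for matching lie above the Con means of 17.2 CPM for *Reg3b* and 3.87 CPM for *Reg3g*. The Con SDs were therefore not set against genes of the Con level. The biological coefficient of variation from edgeR was 88.5% for *Reg3b* and 74.3% for *Reg3g*. A difference of spread between the groups was not detected. The mean absolute deviation from the group median differed by -0.08 (SE 0.51) for *Reg3b* and 0.60 (SE 0.40) for *Reg3g* on the log2 scale, Str minus Con (two-sided permutation test, p = 0.882 and 0.156, n = 10 each). Without CV4 the difference for *Reg3g* was 0.80 (exact permutation p = 0.0303).

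**Figure D3:**
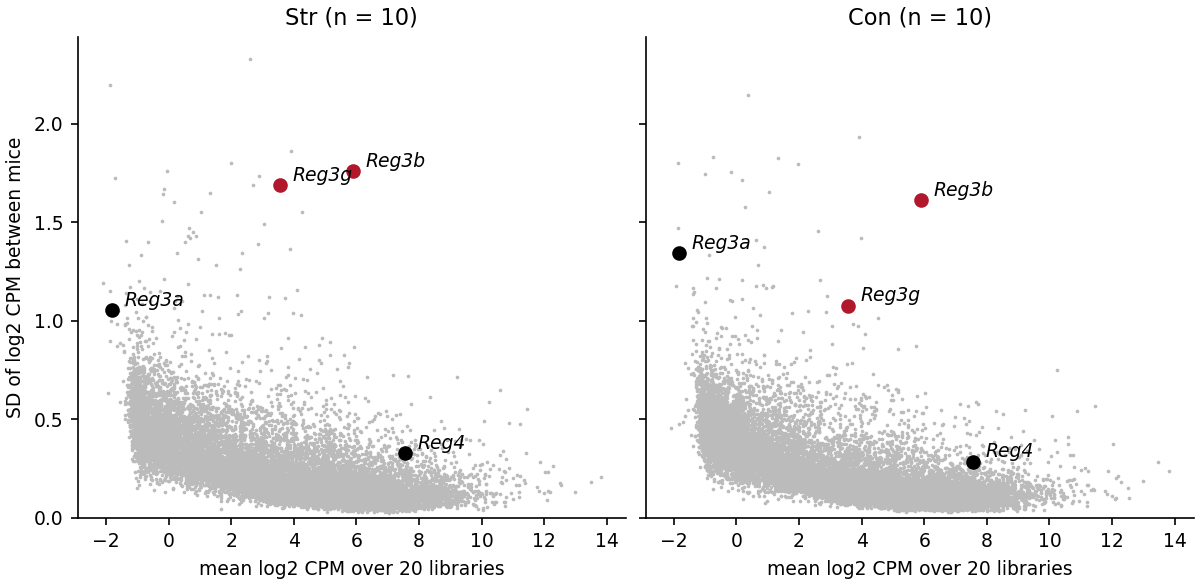
SD of log2 CPM between mice against mean log2 CPM over 20 libraries for all 15876 genes (grey), in 10 Str mice (left) and 10 Con mice (right), with Reg genes marked. *Reg3b* stands at an SD of 1.76 in Str and 1.61 in Con. In each group no gene within a factor of 2 of the mean CPM of *Reg3b* over 20 libraries had a larger SD. These genes were matched on mean CPM, not on the mean log2 CPM of the axis.

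The other Reg genes with a row did not rise with the pair. *Reg3a*, whose mouse product is another REG3 lectin, was at 0 to 18 counts in Str libraries and 0 to 32 counts in Con libraries, although it lies between the pair. *Reg3a* had a log2 fold change of -0.54 with an SE of 0.62 (edgeR, adjusted p = 0.601), and a difference was not detectable at this depth. *Reg4*, a distant family member on chromosome 3 that marks secretory cells of the colon, averaged 167 ± 43.0 CPM in Str and 222 ± 44.7 CPM in Con (SD, n = 10 each). It was lower in Str (log2 fold change -0.41, SE 0.13, adjusted p = 0.0311, edgeR), a call lost without any 1 of 7 libraries (CV1, CV3, CV6, SV1, SV4, SV6 or SL6) and without the 4 Con libraries that held *Alb*, a hepatocyte transcript (-0.32, adjusted p = 0.176, edgeR). Among markers of other secretory cells, *Agr2* of goblet cells (-0.28, adjusted p = 0.00535) and *Gcg* of enteroendocrine cells (-0.39, adjusted p = 0.0435) were also lower in Str (log2 fold changes, edgeR). Each was the 1 of 5 markers called in its list. The other 4 of each list did not pass, with *Tff3* (0.10) and *Scg2* (0.22) above 0 and the rest below 0. The part of these cells in the change of *Reg4* was not tested. Relative to *Reg3a* and *Reg4*, *Reg3b* changed by 5.09 and 5.32 on the log2 scale and *Reg3g* by 3.95 and 4.19 (permutation tests, adjusted p = 4.0e-05 for each over 4 comparisons, chosen after their values were seen). *Reg1*, *Reg2* and *Reg3d* have no row here and were not analysed. Within 500 kb of either gene 4 of 14 annotated genes have a row, the other being *Ctnna2*, a catenin gene (log2 fold change -0.49, adjusted p = 0.144, edgeR).

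Most other epithelial defence genes that inflammation induces rose as well, with smaller log2 fold changes. Of 14 such genes other than the pair, 12 were called higher and 0 lower in edgeR and 2 missed the threshold, with a median log2 fold change of 1.14. Over all genes, the base for this list and those below, 8.94% were called higher and 7.72% lower. *Nos2*, which encodes inducible nitric oxide synthase, averaged 11.5 ± 5.33 CPM in Str and 1.27 ± 0.78 CPM in Con (SD, n = 10 each), with a log2 fold change of 3.17. The oxidase maturation factor gene *Duoxa2* (2.15), the NF-kB adaptor gene *Tifa* (1.65) and the acute phase gene *Saa1* (1.44) were among them (log2 fold changes, adjusted p = 2.00e-05, 2.00e-05 and 1.30e-05, edgeR). *Pigr*, the transporter of IgA, had 0.03 and complement *C3* had -0.25, and neither passed. *Reg3b* rose by more than each of 6 defence genes compared with it within libraries, by a log2 difference of 3.94 over *Fut2*, 3.48 over *Saa1*, 3.42 over *Slpi*, 3.39 over *Pla2g2a*, 3.26 over *Duox2* and 1.86 over *Nos2*. The adjusted permutation p over 12 comparisons was 0.0238 for *Nos2* and at most 0.00046 for the others. Without SV1 the difference over *Nos2* was 1.55 (exact permutation p = 0.0504). *Reg3g* exceeded the same genes by 2.13 to 2.81, except *Nos2*, where the difference of 0.73 (SE 0.60) did not pass (permutation p = 0.245). The pair and the lists were chosen with earlier results of these data known. These p-values rest on the same libraries as the order by log2 fold change, and are descriptions, not separate support.

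**Figure D4:**
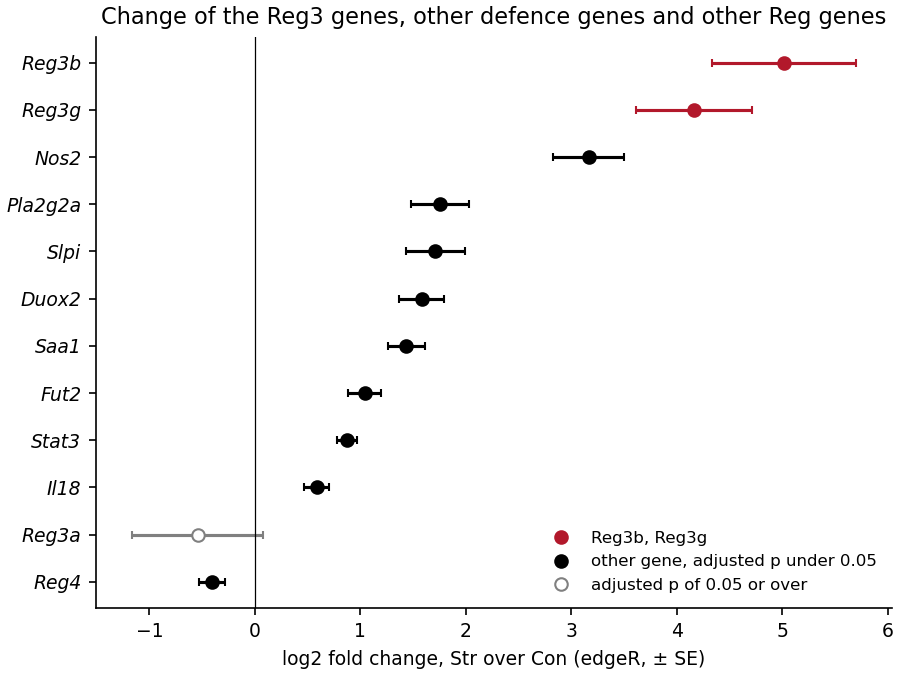
Log2 fold change, Str over Con, of *Reg3b* and *Reg3g* (red), 8 comparison genes and the other measured Reg genes, from edgeR with bars of 1 SE. *Reg3b* is at 5.01 and *Reg3g* at 4.16, *Nos2* is next at 3.17, and *Reg3a* and *Reg4* lie below 0.

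Genes of the pathways that are known to act on the lectins had smaller log2 fold changes. Of 13 measured genes of IL-22 and IL-6 family receptors and STAT3 signalling, 5 were called higher and 0 lower in edgeR. The other 8 missed the threshold, and the median log2 fold change of the 13 was 0.10. The shares over all genes were 8.94% higher and 7.72% lower. *Stat3*, the transcription factor of this route, averaged 261 ± 49.4 CPM in Str and 142 ± 8.54 CPM in Con (SD, n = 10 each), a log2 fold change of 0.87. *Socs3*, a STAT3 target and feedback inhibitor, had 98.8 ± 51.0 CPM in Str and 27.6 ± 4.76 CPM in Con, a log2 fold change of 1.84. The shared receptor chain gene *Il6st* (0.47) and the oncostatin M receptor gene *Osmr* (0.94) were higher too. The IL-22 receptor gene *Il22ra1* (-0.05, adjusted p = 0.790) and *Jak2* (0.18, adjusted p = 0.0535) did not pass in edgeR.

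Of 14 genes of IL-17 receptors, NF-kB and C/EBP factors, 8 were called higher and 0 lower in edgeR, and 6 missed the threshold (median 0.15). *Bcl3* (1.01) and *Nfkbiz* (0.39), both nuclear IkB proteins, *Rela* (0.29) and *Traf6* (0.16) were higher on the log2 scale. *Nfkbia* (0.13) and *Il17rc* (-0.07) did not pass. Of 17 genes of microbe sensing through MyD88 and NOD, 6 were called higher and 1 lower, and 10 missed the threshold (median 0.06). The lipopolysaccharide receptor gene *Tlr4* (0.55), its adaptor gene *Tirap* (0.52), the NOD kinase gene *Ripk2* (0.51) and *Myd88* (0.28) were higher. *Tollip* (0.06) and *Tlr1* (0.07) did not pass. The count of higher IL-17, NF-kB and C/EBP genes was 1 in V libraries alone and 5 without the 4 Con libraries with *Alb* above 10 CPM. Of the 15875 genes tested in each setting, 807 were called higher in V libraries alone and 854 without those 4 Con libraries. In L libraries alone, where 9 genes in all were called higher, 3 of the 14 defence genes were called and 0 genes of these signalling and sensing lists.

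Of 15 other secreted antimicrobial proteins, 5 were called higher and 0 lower in edgeR, and 10 missed the threshold (median 0.19), where 8.94% of all genes were called higher. *Slpi* averaged 3.83 ± 1.71 CPM in Str and 1.17 ± 0.34 CPM in Con (log2 fold change 1.71), and the phospholipase gene *Pla2g5* averaged 27.0 ± 13.1 CPM in Str and 8.69 ± 1.56 CPM in Con (1.64). *Pglyrp1*, a peptidoglycan recognition protein gene, rose by 0.23 and *Sprr2a3* by 0.52, the last with close copies that may share reads. *Lypd8* (0.19) and *Zg16* (0.08), which encode abundant colonic proteins that bind bacteria, did not pass. *Extl3*, the proposed receptor of REG3 proteins on epithelial cells, had a log2 fold change of 0.03 (adjusted p = 0.629, edgeR) on 33.3 ± 1.88 CPM in Str and 32.5 ± 1.80 CPM in Con (SD, n = 10 each).

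Genes of several functions followed the pair from mouse to mouse once the group means were removed. Of 13514 genes with a mean of at least 1 CPM, *Daglb*, a diacylglycerol lipase gene, had the deviations most like the mean deviation of the pair (r = 0.93 over 20 libraries, 0.96 in Str and 0.88 in Con). It averaged 51.3 ± 11.6 CPM in Str and 32.5 ± 4.40 CPM in Con (log2 fold change 0.66, adjusted p = 0.000570, edgeR). The next were *Pgam5* (r = 0.87), *Sh3gl1* (0.85), *Sulf2* (0.85), the glucose cotransporter gene *Slc5a9* (0.85), *Scamp2* (0.84), *Higd1a* (0.84), *Gars* (0.83), *Dmbt1* (0.82) and *Ildr1* (0.82). *Dmbt1* encodes a secreted scavenger receptor protein that binds bacteria, and averaged 6515 ± 803 CPM in Str and 5332 ± 569 CPM in Con (log2 fold change 0.29, adjusted p = 0.0116, edgeR). Of these 10 genes 7 were called higher and 0 lower, against 8.94% and 7.72% of all genes, and *Sh3gl1*, *Higd1a* and *Gars* did not pass. The deviations of *Reg3b* and of *Reg3g* from their group means correlated at r = 0.94. At the other end, *Lifr*, the leukaemia inhibitory factor receptor gene, was last of the 13514 genes (r = -0.84), a gene singled out after its values were seen. *Lifr* averaged 14.2 ± 4.38 CPM in Str and 19.0 ± 5.28 CPM in Con and did not pass (adjusted p = 0.0962, edgeR). These correlations are descriptions over the same 20 libraries, with SL4 low in the Str group and CV4 low in the Con group.

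**Figure D5:**
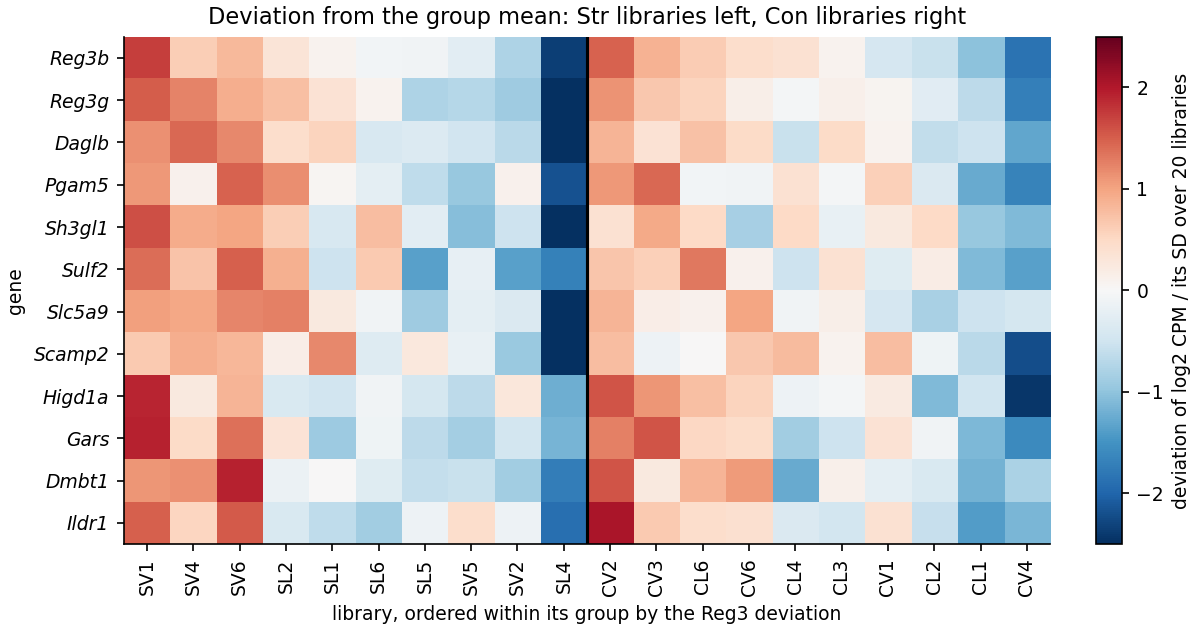
Deviation of log2 CPM from the group mean, divided by its SD over 20 libraries, for *Reg3b*, *Reg3g* and the 10 genes most like them, Str libraries left of Con libraries and ordered within each group by the mean deviation of the pair (colours end at 2.5). SL4 (Str) and CV4 (Con) are low and SV1 (Str) and CV2 (Con) are high for *Reg3b* and *Reg3g*, and *Daglb*, at r = 0.93, follows them.

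The libraries held the markers of colonic epithelium, 8 of 8 of which had a row, with *Epcam* at 1226 to 1624 CPM in Str and 1199 to 1376 CPM in Con. Of these 8, *Krt20* was higher and *Car1* lower in Str. Paneth cells and the exocrine pancreas are other sites where Reg3 genes are strong. Of 8 Paneth markers only *Lyz1*, *Mmp7* and *Ang4* had a row, none was called, and their summed level was 2.99 to 162 CPM in Str and 5.90 to 202 CPM in Con. Among Str libraries the sum was 7.85 CPM in SV1, which had the most *Reg3b*, and 162 CPM in SV2, where *Reg3b* was the second lowest. Among Con libraries it was 138 CPM in CV2, which had the most of both lectins, 202 CPM in CV1, 76.5 CPM in CV6 and at most 14.3 CPM in the rest. A relation of this sum with the lectins was not tested. The acinar marker *Cela1* was at 127 to 183 CPM in Str and 113 to 199.9 CPM in Con and was not called. Small-intestinal enterocyte markers summed to 303 to 556 CPM in Str and 427 to 616 CPM in Con, and of the 6 with a row *Fabp2* was lower in Str. Goblet cell markers summed to 9471 to 14895 CPM in Str and 11137 to 18953 CPM in Con, with *Agr2* the 1 of 5 called. Enteroendocrine markers summed to 187 to 445 CPM in Str and 210.3 to 550.4 CPM in Con, with *Gcg* the 1 of 5 called. Of 6 stroma markers none was called, with sums of 150.1 to 397 CPM in Str and 121 to 409.9 CPM in Con. Of 12 leukocyte markers 4 had a row, with *Ptprc* at 0.33 to 1.62 CPM in Str and 0.51 to 2.17 CPM in Con, while *Ly6g* was higher in Str at 29.9 to 123 CPM, against 17.3 to 38.4 CPM in Con. *Alb*, a hepatocyte marker, was at 1.64 to 3.18 CPM in Str and above 10 CPM in 4 Con libraries (CV3, CV4, CV6 and CL1), up to 79.9 CPM. The hepatocyte marker *Ttr* was lower in Str too (log2 fold change -0.48, adjusted p = 0.00132, edgeR). Without those 4, the log2 fold change was 4.79 for *Reg3b* (adjusted p = 0.00311) and 3.97 for *Reg3g* (adjusted p = 0.00322, edgeR).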

How the data were processed

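Whole-number counts per gene, deposited by the authors, were used. The authors depleted ribosomal RNA, made directional libraries, aligned paired reads of 150 bases to GRCm38.p4 with STAR, and used HTSeq for the gene counts. The table held 15876 genes and may have passed filters on variance and abundance, so genes without a row were not analysed here. A further 20 columns hold values the authors had scaled and stayed out. The group of a library was read from the first letter of the column name, and the numbered mice of the labels could not be matched to single columns. Mice shared cages that are not given, so p-values treat mice as independent.

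Differences between Str and Con were tested with edgeR 4.0.16 under R 4.3.3 (limma 3.58.1), using TMM scaling, quasi-likelihood F tests, genes with a mean count of at least 4 and p-values adjusted by Benjamini-Hochberg over the whole table. A gene was called at an adjusted p under 0.05. The fit was tested on simulated data. Log2 CPM used a prior count of 2. Ratios, spreads and correlations within a group were tested by permutation (100000 resamples, two-sided, scipy 1.17.1), and exactly where a group held fewer than 10 libraries. DESeq2 1.42.0, voom, other scaling, a filter, subsets and each library left out were alternatives. Named genes were both members, the measured Reg genes, the 8 comparison genes, the 10 genes most like the pair, neighbours within 500 kb and, for each pathway list, up to 4 called genes of smallest p and 2 abundant genes not called. The members and lists were chosen with earlier results of these data known. Promoters were matched by symbol for both members. No protein sequence was used here.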

Additional observations from a re-analysis of the deposited data

Results flagged for a closer look

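Of 54 sets of 10 libraries examined, 9 held a library far from the others of its group by Dixon's criterion, which chance meets in about 1 set in 20. On the CPM scale *Reg3b* stood out in Str at 2296 CPM in SV1, against 809 CPM in the next library, and in Con at 58.33 CPM in CV2, against 28.7 CPM in the next. On the log2 scale neither stood out by this criterion. Without SV1 the log2 fold change of *Reg3b* was 4.40, and without CV2 it was 5.46. *Reg3a* stood out in Con at 1.315 CPM, also in CV2. *Reg4* stood out in Str at 277 CPM (8.114 on the log2 scale) in SV2, a library with little *Reg3b* for its group. SL4 was far below the other Str libraries for *Stat3* (7.242 log2 CPM), *Daglb* (4.821 log2 CPM) and *Slc5a9* (3.429 log2 CPM). *Scamp2* was low in Con in CV4 (6.577 log2 CPM). What sets these libraries apart was not tested.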

How the results depend on the processing

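*Reg3b* and *Reg3g* rose in Str under every alternative run, and both passed in all but 1: *Reg3g* in L libraries alone (3.81). Leaving out 1 library gave log2 fold changes of 4.40 to 5.46 for *Reg3b* and 3.87 to 4.41 for *Reg3g*, DESeq2 gave 5.02 and 4.18, and voom 4.87 and 3.78. Genes called higher (1420) and lower (1226) numbered 854 and 608 without the 4 Con libraries with *Alb*, 807 and 817 in V libraries alone, and 9 and 2 in L libraries alone. With library sizes alone 1949 were lower. Leaving out 1 library gave 1151 to 1567 higher and 902 to 1605 lower. Over all pathway lists, genes called lower numbered 1 to 4 with 1 library left out, 0 without the *Alb* libraries, 1 in V libraries and 0 in L libraries, where 3 were called higher. The difference of spread of *Reg3b*, which never passed, ran from -0.39 to 0.19 with 1 library left out and was 0.24 without the *Alb* libraries and 0.077 in L libraries alone. That of *Reg3g* ran from 0.31 to 0.80. The change of *Reg3g* relative to *Nos2* was -0.50 in L libraries alone, and that of *Reg3b* relative to *Nos2* lost its call there (0.59) and without the *Alb* libraries (1.36). The causes were not tested. Whether the numbers in the column names pair the libraries could not be told. For deviations from the group means, r of same-name libraries ran from 0.0037 (L6) to 0.34 (L2). It was over 0.1 in 4 of 8 pairs, and 2 of 8 Str libraries correlated best with the Con library of their own name. With those pairs as a block the log2 fold change was 5.11 for *Reg3b* and 4.15 for *Reg3g*, and 1553 genes were higher and 1360 lower, against 1371 and 1210 in the same 16 libraries without the block, a comparison added after seeing the data. Depth limits *Reg3a*, at no more than 32 counts a library, and *Reg3g* in CV4 (11 counts).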
